A study of Mus musculus with 6 samples.

Results

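Regulatory T cells, sorted as CD4+CD25hi thymocytes, were compared between mice without TNF (TNF-KO) and mice without both TNF and RelA (TNF/RelA-DKO). The comparison rests on 2 of the 6 arrays of the study, 1 for each genotype, chosen by their labels. Both groups were C57BL/6 mice aged 1.5 to 2 weeks, both lacked TNF, and each array held RNA pooled from 5 mice. The gate was CD4+CD8α-CD25hi. The other 4 arrays hold CD45-EpCAM+ and CD45+EpCAM- thymic cells of the same genotypes and are used only for reference. With 1 pooled array per genotype no difference has a replicate check, no test can be made, and no p-value is given. The labels state neither the sex of the mice nor whether the RelA loss was limited to a cell type, and Rela was lower in the other sorted populations as well.

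RelA, also called p65, is a DNA-binding subunit of NF-kB. It is held in the cytoplasm by IkB proteins and enters the nucleus when receptors such as the T cell receptor, CD28 or members of the TNF receptor family activate the IkB kinase. Mice without RelA die before birth from TNF-driven liver cell death, which is why the control is the TNF knockout. Thymic regulatory T cells depend on strong T cell receptor signals, on NF-kB and on interleukin 2, turn on Foxp3, and leave the thymus along a gradient of sphingosine 1-phosphate (S1P). The study asked whether mature regulatory T cells need RelA for that exit.

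A level is given as the log2 processed signal of a gene's probe minus the array's 75th percentile, so that 0 is the 75th percentile. A difference is the log2 level in TNF/RelA-DKO minus that in TNF-KO. Levels of different genes come from different probes and are not compared. The 75th percentile of the signal was 318 on the TNF-KO array and 272 on the TNF/RelA-DKO array, and 12730 and 12495 genes were well above background. Of 20866 named genes, 12936 passed the background test on 1 or both arrays and had a difference. Both arrays lay on 1 slide and were scanned together. In the CD45-EpCAM+ pair, used for reference, the TNF/RelA-DKO array was weaker. Its 75th percentile was 108 against 370 in TNF-KO, and 11895 against 15765 genes were well above background.

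Most genes stood at like levels. The median difference was -0.02, the quartiles were -0.20 and 0.20, and 97.0% of genes lay within 2-fold. Of the 12936 genes, 217 (1.68%) were at least 2-fold higher and 165 (1.28%) at least 2-fold lower in TNF/RelA-DKO. As a measure of technical error, different probes of 1 gene differed in their log2 difference with an SD of 0.22 over 3112 genes. The scanner software's own spot error of a difference had a median of 0.20. Neither measures the spread between pools of mice. The 2-fold differences lay mainly among dim genes: 30 of the 217 higher and 22 of the 165 lower genes reached the 75th percentile on either array, against 6649 of all 12936. For 92 of the higher and 68 of the lower genes 1 array was not well above background. There the difference is a lower bound, computed against the dim gene's own signal or the lowest signal well above background on that array, whichever was higher. Its direction is fixed by which array measured the gene, and it is written as "at least" or as a bound. Results were recomputed in 8 other ways; normexp, a model-based background correction with an added offset of 50, shrinks the differences of dim genes. Its value follows those named differences of at least 0.6 that it shrinks by over 1.5 times.

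**Figure D1:**
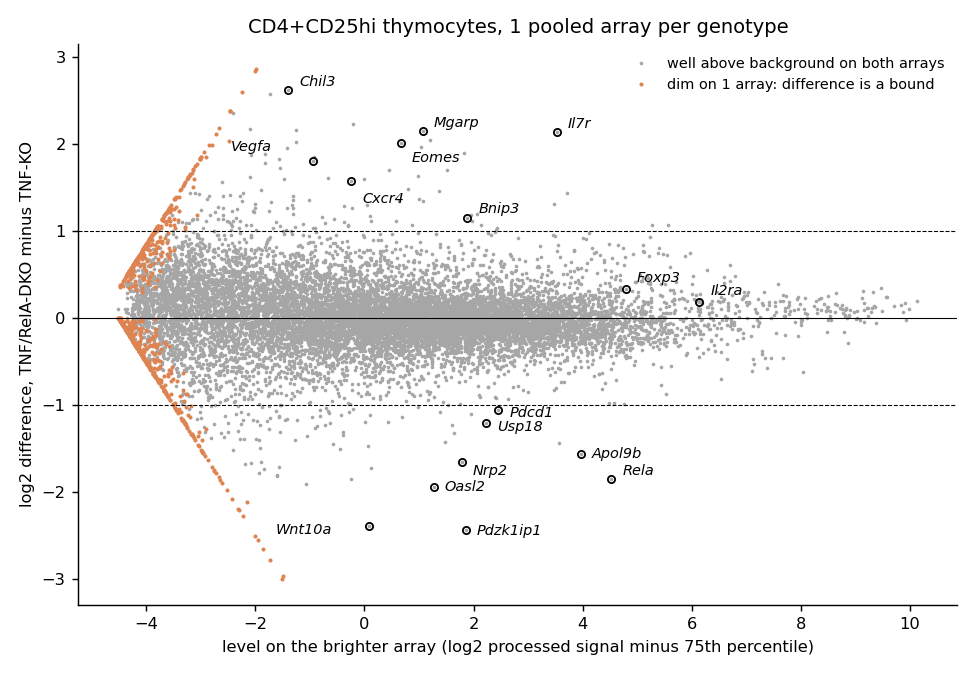
Log2 difference between the genotypes (y axis) against the level on the brighter array (x axis, log2 signal minus the 75th percentile) for 12936 genes of CD4+CD25hi thymocytes; orange points are bounds, dashed lines mark 2-fold, and circled genes are named in the text. Il7r stands 2.13 above 0 and Rela 1.86 below, while Foxp3 and Il2ra stand at 0.33 and 0.18.

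Rela itself was lower where it had been disrupted. Its level was 4.52 in TNF-KO and 2.66 in TNF/RelA-DKO, a difference of -1.86 with a spot error of 0.20, or 3.63-fold lower. Where the single probe lies with respect to the deletion is not given, and the remaining signal does not measure protein. Tnf, disrupted in both groups, stood at -0.64 and -0.78. Foxp3, which encodes the factor that fixes the regulatory T cell fate, stood at 4.47 in TNF-KO and 4.79 in TNF/RelA-DKO, a difference of 0.33. Il2ra, which encodes the sorting marker CD25, stood at 5.96 and 6.14, and Cd4 at 4.04 and 4.01. These markers were present on both arrays. Foxp3 and Ctla4 stood far lower in the CD45+EpCAM- arrays, at -1.82 and -3.30 in TNF-KO. Some markers of macrophages, granulocytes, epithelium, erythrocytes and endothelium (Adgre1, C1qa, C1qc, Lyz2, S100a8, S100a9, Krt8, Foxn1, Hbb-bs and Cdh5) were not well above background on either CD4+CD25hi array. Others were well above it on both, among them C1qb, Krt14, Hba-a1, Krt18, Elane and Pecam1, at -3.33, -3.27, -2.05, -1.03, -0.96 and -0.65 in TNF-KO, and Csf1r and Kdr at 0.23 and 3.15.

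Il7r departed furthest among the markers. It encodes the alpha chain of the interleukin 7 receptor, which naive and resting T cells carry and which activated regulatory T cells usually keep low. Its level was 1.39 in TNF-KO and 3.53 in TNF/RelA-DKO, a difference of 2.13 with a spot error of 0.20, or 4.38-fold higher. It lay between 2.01 and 2.16 over all 8 alternatives. Il7r also stood higher in TNF/RelA-DKO in the other populations. Its levels were -1.95 and -0.65 in CD45-EpCAM+ cells and 1.36 and 1.87 in CD45+EpCAM- cells. Among the 30 cytokine receptor and JAK-STAT genes compared, Il7r was the only one at least 2-fold apart, and the list's median was 0.05. Il10ra, a subunit of the interleukin 10 receptor, came next at 0.87, followed by the transcription factor Stat4 at 0.77. The interleukin 2 receptor chains Il2rb and Il2rg differed by 0.20 and -0.02. Stat5a and Stat5b, which carry the interleukin 2 signal to the nucleus, differed by -0.43 and -0.36. None of 18 interleukin 2 and STAT5 target genes reached 2-fold. Socs2 (0.76), Pim2 (0.63, or 0.41 with normexp) and Socs3 (0.59) were the highest of them, and Cish differed by 0.13.

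The genes of regulatory T cell identity were near parity as a group. Of 24 compared, 0 were at least 2-fold higher and 1 lower. The median was -0.14, between -0.16 and -0.11 over the 8 alternatives. Lag3, an inhibitory receptor that binds MHC class II, was the 1 lower gene, at -1.75 in TNF-KO and -3.04 in TNF/RelA-DKO. Its difference of -1.29 shrank to -0.52 with normexp background correction. Tnfrsf4 and Tnfrsf18, which encode the costimulatory receptors OX40 and GITR, differed by -0.18 and -0.31, and the transcription factor genes Ikzf2 and Ikzf4 by -0.11 and -0.22. At the other end stood Ebi3, a subunit of interleukin 35, with levels of 1.89 and 2.81. Ctla4, an inhibitory receptor, had levels of 1.33 and 2.00, a difference of 0.67. Tigit, another inhibitory receptor gene, differed by -0.77, and by -0.12 with normexp.

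Of 27 genes of the TNF receptor superfamily and of costimulation compared, 19 lay below 0 (52.2% of all 12936 genes did), with a median of -0.11. The list shares 7 genes with the identity list, and with normexp none of it reached 2-fold. Pdcd1, which encodes PD-1, stood at 2.45 in TNF-KO and 1.39 in TNF/RelA-DKO, 2.08-fold lower, or -0.93 with normexp. Tnfsf14, the gene of the ligand LIGHT, differed by -0.96 (-0.48 with normexp) and Cd28 by -0.48. Cd40 was the only gene of the list at least 2-fold higher, as a bound of 1.02 (0.28 with normexp). The 24 effector regulatory T cell genes went both ways, with 2 past 2-fold in each direction (0 and 0 with normexp) and a median of -0.12. Klrg1, an inhibitory receptor of activated cells, and Il1rl1, which encodes the receptor for interleukin 33, were both 1.40 lower in TNF/RelA-DKO but only 0.45 lower with normexp. Cd44, an adhesion receptor that marks activated T cells, differed by -0.72. Nrp2, a semaphorin co-receptor, stood at 1.78 and 0.12, 3.16-fold lower, and its probes gave -1.66 and -2.39.

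The genes that carry thymocytes out of the thymus stood at like or slightly higher levels in TNF/RelA-DKO. Of 23 genes of egress and S1P handling compared, 2 were at least 2-fold higher (1.68% of all genes were) and 0 lower. Below 0 lay 6 (52.2% of all genes did), with a median of 0.18 (0.12 to 0.23 over the alternatives). S1pr3, an S1P receptor gene not on this list, differed by -1.78 (-0.70 with normexp). S1pr1, the receptor that senses S1P in blood, stood at 3.54 in TNF-KO and 3.94 in TNF/RelA-DKO. Klf2, which drives S1pr1, stood at 5.04 and 5.43. Ccr7, a chemokine receptor of mature thymocytes, differed by 0.42. Foxo1, which lies upstream of Klf2 and Il7r, differed by 0.25. Cd69, whose product removes S1P receptor 1 from the cell surface, was also higher, at 1.49 and 2.21. S1pr5, Spns2 and Plpp3 were not well above background. The S1P lyase gene Sgpl1 differed by 0.08 and the cytoskeletal gene Coro1a by -0.03. The 2-fold members were Cxcr4, with levels of -1.81 and -0.24, and Cd55, with -1.37 and -0.30 (0.68 with normexp). Cxcr4 encodes the receptor for CXCL12, and CD55 protects cells from complement.

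Other chemokine receptors and maturation genes leaned the same way. Of 13 chemokine receptors compared, 3 were at least 2-fold higher (1 with normexp), against 1.68% of all genes, and 0 lower. The median was 0.36 (0.22 to 0.39). Cxcr3, which T helper 1 cells and the regulatory T cells that follow them carry, stood at -1.65 and -0.37 (a difference of 1.28, and 0.90 with normexp). Ccr9, the receptor of immature thymocytes, and Ccr8, of effector regulatory T cells, differed by -0.53 and -0.39. Of 22 Gimap and late maturation genes 7 lay below 0 and the median was 0.18. Besides Il7r, none reached 2-fold. Gimap4 and Gimap6, GTPases of mature lymphocytes, differed by 0.53 and 0.41, and Ly6c1 by 0.40.

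Genes of immature thymocytes were lower in TNF/RelA-DKO. Of 25 compared, 22 lay below 0 (52.2% of all genes did), 4 were at least 2-fold lower (1.28% of all) and none 2-fold higher. The median was -0.48 (-0.51 to -0.18, the last with normexp, where 0 reached 2-fold). Ptcra, the pre-T cell receptor alpha chain, stood at -0.39 in TNF-KO and -1.74 in TNF/RelA-DKO. Notch3 stood at -0.88 and -2.12. With normexp these differences were -0.82 and -0.69. Dntt, which adds bases at receptor gene junctions, stood at 1.54 and 0.53, and the recombinase gene Rag1 at 0.03 and -0.85. Mpzl2 was lower by a bound of -1.12, which fell to -0.12 with normexp. Cd8a and Cd8b1, which the gate excludes as protein, differed by -0.78 (-0.26 with normexp) and -0.55. Tcf7 and Tox, which mature thymocytes also express, differed by 0.00 and -0.06. The summed signal of the 28 list genes on the array, in units of the 75th percentile, was 77.7 in TNF-KO and 67.3 in TNF/RelA-DKO. The median difference of the list was -0.33 in CD45+EpCAM- cells and 0.60 in CD45-EpCAM+ cells. A different share of immature cells in the gate and a different level per cell cannot be told apart in pooled RNA.

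**Figure D2:**
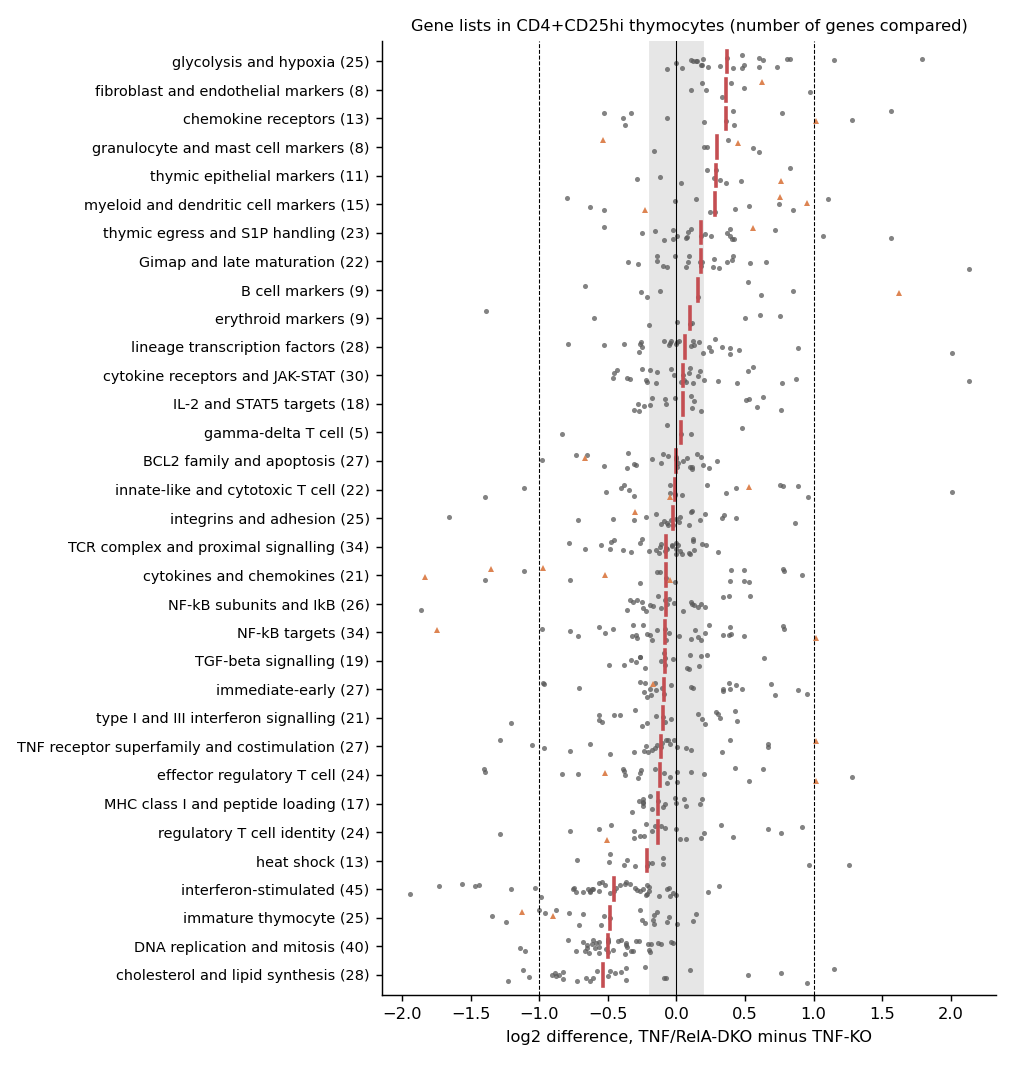
Log2 differences of the members of 33 gene lists in CD4+CD25hi thymocytes (x axis), sorted by the list median, drawn as a red bar. Triangles are bounds, the grey band spans the quartiles of all genes (-0.20 to 0.20) and dashed lines mark 2-fold. The glycolysis and hypoxia list stands highest at 0.37 and the cholesterol and lipid list lowest at -0.54.

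Interferon-stimulated genes were lower as a group. Type I interferons signal through a complex that holds STAT2 and IRF9 and binds the interferon-stimulated response element (ISRE) in the promoters of antiviral genes. Of 45 such genes compared, 43 lay below 0, against 52.2% of all genes, and 17 were at least 1.5-fold lower, against 4.79% of all genes. At least 2-fold lower were 7, against 1.28% of all genes, and 0 were higher. The median was -0.45, and it lay between -0.50 and -0.38 over all 8 alternatives. The 7 were oligoadenylate synthetase genes (Oasl2, Oas2, Oas1a and Oasl1), whose products sense double-stranded RNA or resemble those that do, the apolipoprotein L genes Apol9b and Apol9a, and Usp18, a brake on interferon receptor signalling.

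The promoters of Oas1a, Apol9b and Isg15 are shown because these genes were among the lower ones and hold the ISRE core. Each is the 250 bases before the gene start in RefSeq's annotation of GRCm38.p6. Capitals mark every match, on either strand and with overlaps merged, of the core GAAANNGAAA, and the coordinates are those of the window.
Oas1a, chr5:120907526-120907775, minus strand: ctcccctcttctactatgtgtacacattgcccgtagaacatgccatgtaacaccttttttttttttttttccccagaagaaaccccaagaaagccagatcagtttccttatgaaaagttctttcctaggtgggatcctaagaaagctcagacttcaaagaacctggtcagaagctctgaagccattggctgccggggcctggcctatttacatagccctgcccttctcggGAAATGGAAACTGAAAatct
Apol9b, chr15:77728822-77729071, plus strand: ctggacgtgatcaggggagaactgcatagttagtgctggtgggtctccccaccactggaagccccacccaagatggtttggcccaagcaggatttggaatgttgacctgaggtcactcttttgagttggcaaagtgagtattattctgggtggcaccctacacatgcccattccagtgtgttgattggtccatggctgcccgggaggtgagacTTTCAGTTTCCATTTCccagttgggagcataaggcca
Isg15, chr4:156200819-156201068, minus strand: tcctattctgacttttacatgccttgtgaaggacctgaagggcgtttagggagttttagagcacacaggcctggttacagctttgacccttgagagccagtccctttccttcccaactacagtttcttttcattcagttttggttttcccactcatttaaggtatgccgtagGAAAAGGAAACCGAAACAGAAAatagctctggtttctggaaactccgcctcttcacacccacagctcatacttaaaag
The matches began 20 and 14 bases before the start of Oas1a, 37 and 31 before Apol9b, and between 78 and 66 before Isg15. Apol9a carries the same stretch of overlapping matches from 59 bases before its start. Its sequence is so close to that of Apol9b that the probes may read both. Of the 45 genes, 34 had an entry, and 18 of these (52.9%) held the core, against 823 of 27025 genes in the table (3.05%). The list was drawn up as interferon-stimulated genes with earlier results of these data known, and only members compared on the arrays were counted. The share therefore describes the list and is no result of the arrays. Members with the core had a median difference of -0.55 and those without it -0.28. The windows of Oasl1 and Oasl2 did not hold these letters. A match is a description of the sequence, not evidence of binding.

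The individual levels show how far apart the arrays stood. Oasl2 stood at 1.27 in TNF-KO and -0.68 in TNF/RelA-DKO, 3.84-fold lower. Oas2 stood at 0.12 and -1.62, and Oas1a at 0.07 and -1.40. Their differences of -1.73 and -1.47 were -1.17 and -0.98 with normexp. Apol9b stood at 3.98 and 2.41 and Apol9a at 3.56 and 2.12. Usp18 stood at 2.23 and 1.02, 2.31-fold lower. Isg15, a ubiquitin-like modifier, stood at 4.75 and 3.76, just short of 2-fold. Oasl1 stood at 0.98 and -0.05, with -0.87 by normexp. The factors that carry the signal were lower by less: Stat2 and Irf9 both differed by -0.57 and Irf7 by -0.41. The receptor genes Ifnar1 and Ifnar2 differed by 0.30 and 0.16. Ifnb1 and Ifna4 were not well above background on either array. Gbp2 and Igtp, which interferon gamma drives, differed by -0.07 and -0.34, and the 17 MHC class I and peptide loading genes had a median of -0.13 with 0 at 2-fold. Ly6e (0.31) and Gbp3 (0.23) were the 2 genes above 0.

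**Figure D3:**
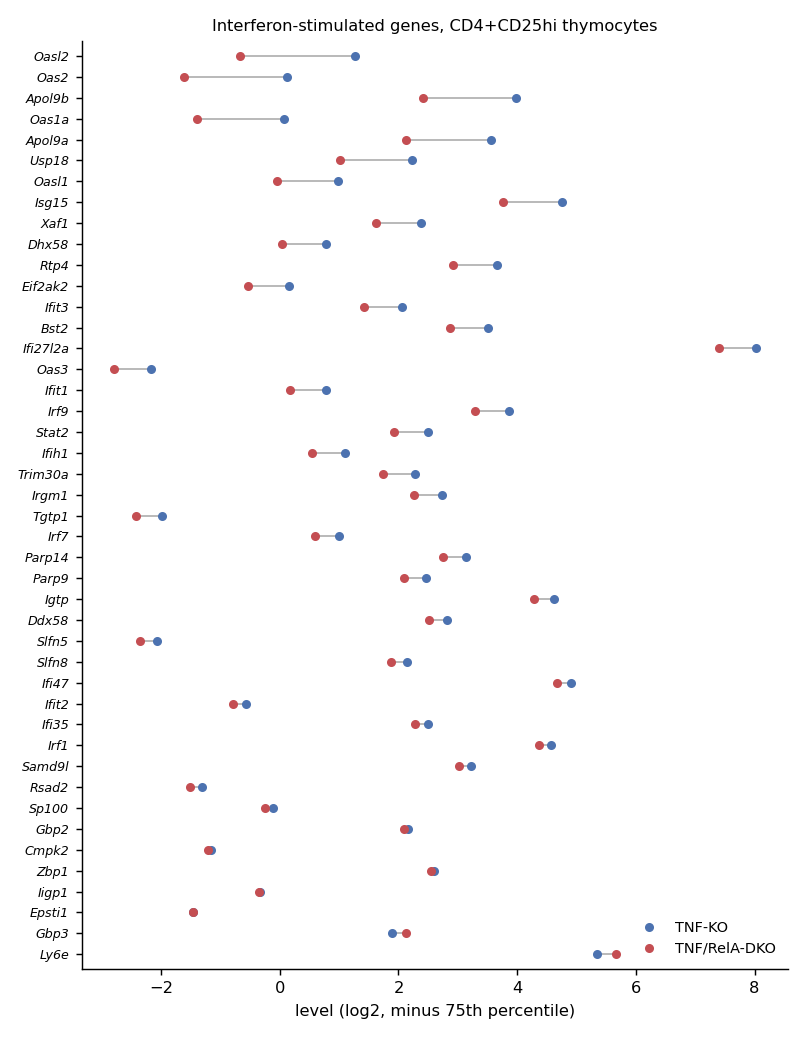
Levels (x axis, log2 signal minus the 75th percentile) of 44 of the 45 interferon-stimulated genes on the TNF-KO array (blue) and the TNF/RelA-DKO array (red), sorted by their difference. The red point lies left of the blue one for 42 of the genes drawn; Oasl2, at the top, stands at 1.27 and -0.68.

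In the other populations the same list differed by a median of -0.37 in CD45+EpCAM- cells and 0.14 in CD45-EpCAM+ cells. Apol9b differed by -1.41 and -1.10 there, and Oasl2 by -1.18 and 0.14. Whether populations differ was not tested.

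Genes of sterol synthesis were lower and sterol export genes higher. Cells sense low sterol through SREBP-2, the product of Srebf2, which drives cholesterol synthesis and uptake, while liver X receptors sense excess oxysterols and drive export. Of 28 cholesterol and lipid genes compared, 23 lay below 0, against 52.2% of all genes. At least 2-fold lower were 3 and higher 1 (1 and 0 with normexp), against 1.28% and 1.68% of all genes. The median was -0.54, between -0.54 and -0.35 over the alternatives. Idi1, an isomerase of the mevalonate pathway, stood at 1.61 in TNF-KO and 0.38 in TNF/RelA-DKO, 2.35-fold lower. Cyp51, a sterol demethylase, stood at -0.67 and -1.75, with -0.78 by normexp. Sqle, Fdft1, Fdps and Hmgcs1 lay between -0.89 and -0.83, and Srebf2 at -0.41. On the other side, Abca1 stood at -1.93 and -0.78, 2.22-fold higher (0.77 on the log2 scale with normexp), and Abcg1 at 3.09 and 3.85. Both encode sterol exporters that liver X receptors induce. Mylip, which such receptors also induce, differed by 0.52. Of the 28 genes, 18 had a promoter entry. The promoter of Hmgcs1 is shown as the 1 of these 18 that held the sterol regulatory element TCACNCCAC in its 250 bases, marked in capitals. That single gene makes 5.56%, against 1.03% of all genes, and the windows of Idi1 and Cyp51 did not hold the element.
Hmgcs1, chr13:119690101-119690350, plus strand: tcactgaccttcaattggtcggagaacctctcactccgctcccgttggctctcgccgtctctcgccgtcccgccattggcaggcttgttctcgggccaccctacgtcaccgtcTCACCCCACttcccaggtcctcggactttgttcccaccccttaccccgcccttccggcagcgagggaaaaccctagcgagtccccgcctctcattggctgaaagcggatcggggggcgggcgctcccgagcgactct
The list also lay below 0 in the other populations, at -0.31 in CD45+EpCAM- and -0.34 in CD45-EpCAM+ cells. Abca1 was at least 2-fold higher in all 3 pairs, by 1.15, 1.02 and 1.34.

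Glycolysis and hypoxia genes were higher in TNF/RelA-DKO. HIF-1 binds a short core, ACGTG, and drives glucose uptake, glycolysis and mitochondrial clearance when oxygen is low, and T cell activation also raises these genes. Of 25 compared, 2 lay below 0, 8 were at least 1.5-fold higher (7.3% of all genes were), and 2 of these passed 2-fold. The median was 0.37 (0.33 to 0.39). Vegfa, a vessel growth factor, stood at -2.74 in TNF-KO and -0.94 in TNF/RelA-DKO, and its probes gave 1.79 and 1.89, or 1.05 with normexp. Bnip3, which marks mitochondria for removal, stood at 0.74 and 1.89, 2.22-fold higher. Pdk1, which keeps pyruvate out of mitochondria, stood at -0.44 and 0.39. The glycolytic enzyme gene Aldoc stood at 0.57 and 1.38 and the glucose transporter gene Slc2a3 at 1.62 and 2.36. Hif1a itself differed by 0.60, Tpi1 by 0.63 and Aldoa by 0.60. Ldha and Hk1 were the members at or below 0, at -0.00 and -0.07. Mgarp, a mitochondrial protein gene that hypoxia also induces and which was not on the list, stood at -1.07 and 1.07, 4.41-fold higher. Of 24 list genes with a promoter entry, 12 (50%) held ACGTG in 250 bases, against 16.5% of all genes, a share that also follows CpG content. This list too was drawn up for its pathways with earlier results known, and the share describes the list, not the arrays. Members with the core had a median difference of 0.30 and those without it 0.40. Bnip3 is shown as the member with the largest difference among those at or above the 75th percentile on both arrays; its palindrome matches on both strands.
Bnip3, chr7:138909507-138909756, minus strand: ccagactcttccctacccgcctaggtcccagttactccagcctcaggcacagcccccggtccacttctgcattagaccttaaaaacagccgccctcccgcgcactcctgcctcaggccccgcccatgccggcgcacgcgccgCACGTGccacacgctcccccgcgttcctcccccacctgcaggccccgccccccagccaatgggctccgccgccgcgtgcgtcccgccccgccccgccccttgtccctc
The median of this list was 0.03 in each of the other populations.

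DNA replication and mitosis genes were lower. Of 40 compared, 40 lay below 0, 13 were at least 1.5-fold lower (4.79% of all genes were) and 2 at least 2-fold lower. The median was -0.50, between -0.50 and -0.39 over the alternatives, and with normexp 37 of 40 lay below 0. In CD45+EpCAM- cells the list also lay below 0, with a median of -0.20 and 41 of 42 genes below 0. In CD45-EpCAM+ cells its median was 0.18. The 6 genes of the replicative helicase lay close together, Mcm2 at -0.61, Mcm5 at -0.59, Mcm3 and Mcm6 at -0.57, and Mcm7 and Mcm4 at -0.50. Rrm2, which makes deoxynucleotides, stood at 2.09 in TNF-KO and 1.30 in TNF/RelA-DKO. Uhrf1 stood at 3.39 and 2.74, Ccne1 at 1.84 and 1.11, and Mki67, the gene of Ki-67, at 2.82 and 2.44. The 2-fold members were Cdc6 and Kif11, a licensing factor and a spindle motor, at -1.14 and -1.11, which were -0.41 and -0.45 with normexp. These genes and those of immature thymocytes share no member, and both lists were lower on the same array. Whether fewer dividing cells, fewer immature cells or a lower level per cell accounts for either was not tested.

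**Figure D4:**
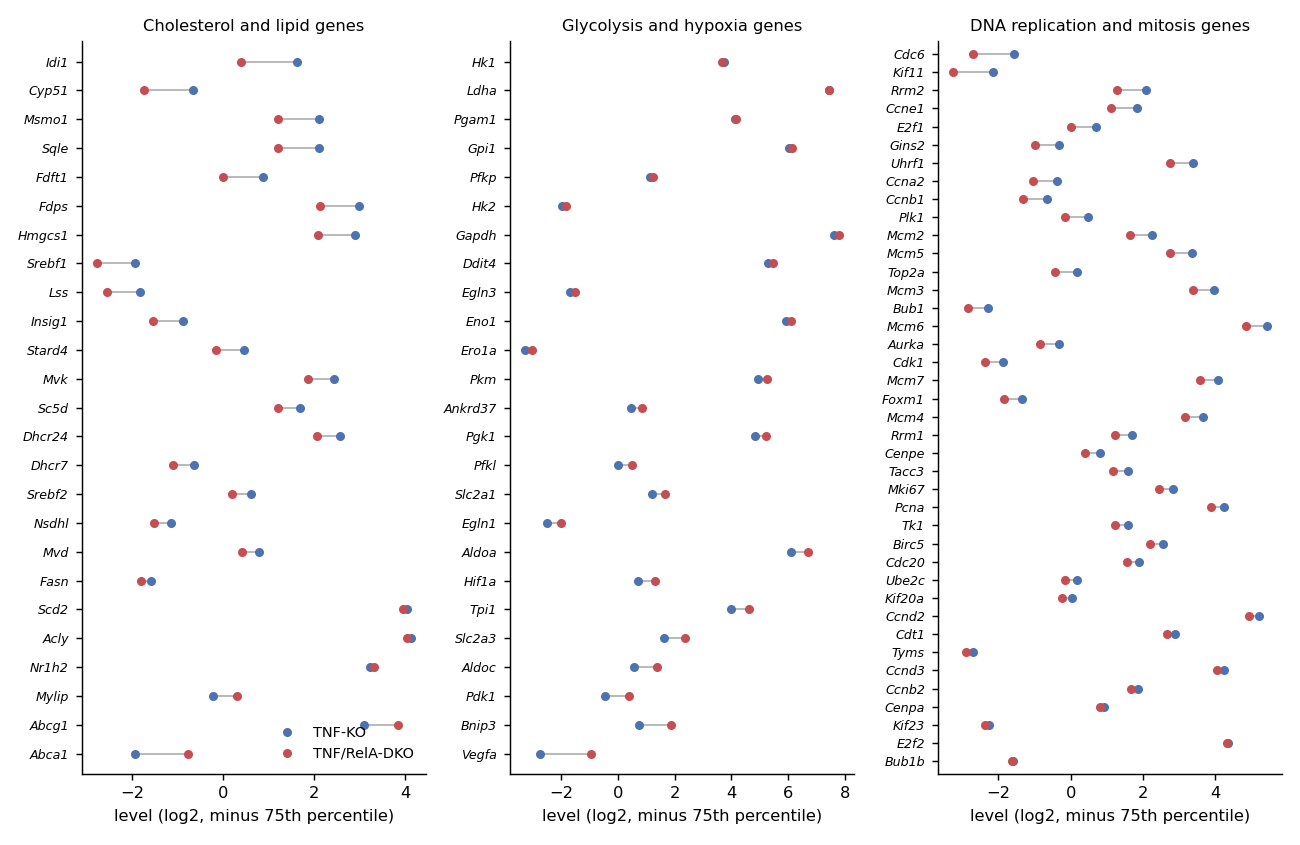
Levels (x axes, log2 signal minus the 75th percentile) of cholesterol and lipid (25 of 28 drawn), glycolysis and hypoxia, and DNA replication and mitosis genes on the TNF-KO array (blue) and the TNF/RelA-DKO array (red), each sorted by difference. Red lies left of blue for 21 of 25 and 40 of 40 genes in the outer panels, and right of it for 23 of 25 in the middle one.

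The NF-kB system was close to parity apart from Rela. Of 26 subunit, IkB and kinase genes compared, Rela was the 1 gene at least 2-fold apart, and the median was -0.08. Nfkb1, Nfkb2 and Relb, which encode other subunits, differed by -0.32, -0.29 and -0.25. Rel, which encodes a further subunit, was not well above background on either array and has no difference. Nfkbia and Tnfaip3, feedback inhibitors that RelA induces in many cells, differed by 0.21 and 0.34. Of 34 NF-kB target genes, 1 was at least 2-fold higher and 1 lower, both as bounds, and with normexp none reached 2-fold. Their median was -0.08. Vcam1 was lower by a bound of -1.75 (-0.21 with normexp), with a level of -2.76 in TNF-KO, and Bcl2a1d, a survival gene of the BCL2 family, stood at 4.57 in TNF-KO and 3.59 in TNF/RelA-DKO. In CD45-EpCAM+ and CD45+EpCAM- cells Bcl2a1d differed by -1.96 and -0.52. Of the 27 BCL2 family and apoptosis genes none reached 2-fold. Bcl2, Mcl1 and Bcl2l11 differed by 0.11, 0.15 and -0.10.

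T cell receptor genes stood at like levels, and the genes that receptor signals induce went both ways. Of 34 receptor complex and signalling genes, 0 reached 2-fold, with a median of -0.07. Cd3e differed by -0.03, Zap70 by -0.07 and Lck by -0.26. Of 27 immediate-early genes 0 reached 2-fold. Nr4a1, which reports receptor signal strength, stood at 6.53 and 5.83, and Egr2 at 1.44 and 0.47. Fos stood at 0.83 and 1.72, and Dusp1, a phosphatase gene that cell handling also induces, at 1.37 and 2.32. So Egr2 and Nr4a3 were both 0.97 lower (Nr4a3 by -0.53 with normexp), while Fos and Dusp1 were 0.89 and 0.95 higher.

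Genes of innate-like and cytotoxic T cells went both ways. Of 22 compared, 1 was at least 2-fold higher and 2 lower, and the median of -0.01 changed sign with the processing. Eomes, a T-box factor of memory and cytotoxic cells, stood at -1.35 in TNF-KO and 0.66 in TNF/RelA-DKO, with 2.01 and 2.13 from its probes and 1.55 with normexp. Slamf6 and Id2 were 0.96 and 0.89 higher, Prf1 and Ccl5 0.76 and 0.78. Xcl1, a chemokine gene of medullary-homing and cytotoxic cells, stood at 1.95 and 0.83. Ifng stood at -1.99 and -3.39, with -0.45 by normexp. Tbx21 differed by -0.05. Klrd1, Klrk1, Klrb1c, Ncr1 and Fasl, which mark natural killer cells and their T cell relatives, were not well above background on either array. Zbtb16, which defines natural killer T cells, was above background on the TNF/RelA-DKO array alone, at -4.31.

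The medians of markers of other cell types lay slightly above 0. They were 0.16 for 9 B cell genes, 0.28 for 15 myeloid and dendritic cell genes, 0.30 for 8 granulocyte genes, 0.10 for 9 erythroid genes, 0.29 for 11 thymic epithelial genes and 0.36 for 8 fibroblast and endothelial genes. With normexp these were 0.17, 0.22, 0.13, 0.02, 0.14 and 0.21, and the B cell median was 0.00 with quantile normalization. The 7811 genes not well above background on either array had a median measured difference of 0.26, so that dim genes as a whole stood higher by a like amount. The summed signals, in units of the 75th percentile, were 3.24 and 4.76 for B cell, 197 and 225 for myeloid, 109 and 126 for granulocyte, 10.3 and 10.7 for erythroid, 18.8 and 19.5 for epithelial, and 42.6 and 54.2 for fibroblast and endothelial genes. A sum mainly follows the brightest genes of its list and does not measure the list as a whole. Siglech, at 7.28 in TNF-KO, made up most of the myeloid sum, and Csf3r, at 6.71, most of the granulocyte sum. Of the markers on the array, 13, 27, 16, 15, 18 and 16 in that order, 3, 10, 8, 6, 7 and 8 were not well above background on either array. Ms4a1, which encodes the B cell protein CD20, was higher by a bound of 1.62 (0.49 with normexp), with a level of -3.22 in TNF/RelA-DKO. The MHC class II gene H2-Eb1 stood at -3.52 and -2.41, a difference that was 0.46 with normexp. Cd74, the class II chaperone, was lower, at 0.67 and -0.13. Fcer1g, a signalling chain of myeloid and natural killer cells, stood at -3.36 and -1.41, or 0.94 apart with normexp. The part of other cells in the differences above was not tested. Among sex-linked genes Ddx3y and Eif2s3y differed by 0.35 and 0.59 and Xist by -0.18, so that a different share of males in the pools and an effect of genotype cannot be told apart for these genes.

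**Figure D5:**
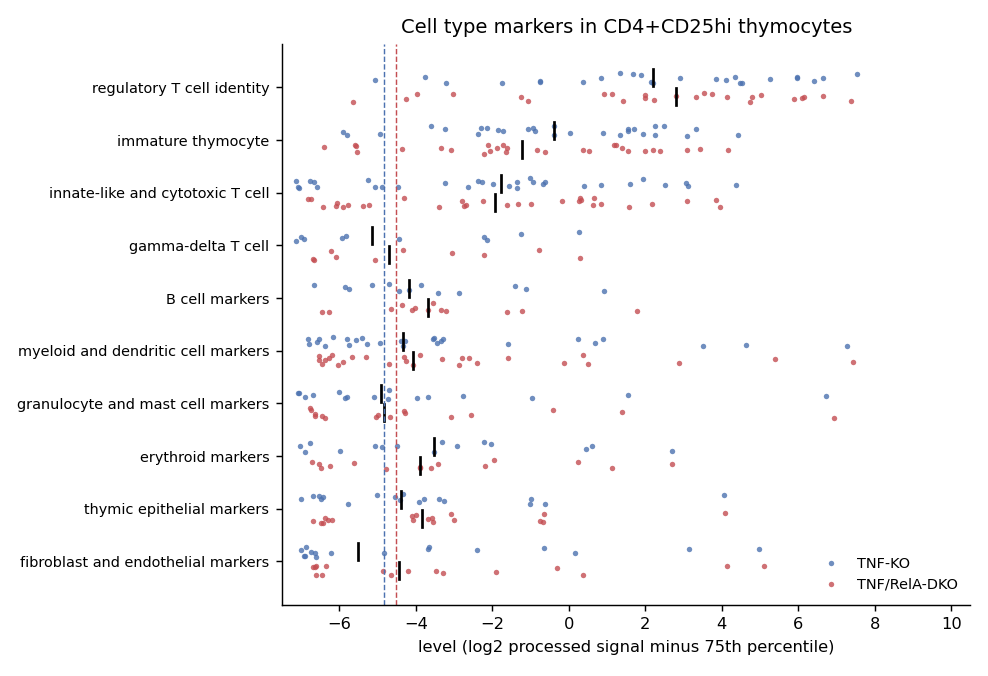
Levels (x axis, log2 signal minus the 75th percentile) of regulatory T cell identity genes and of markers of 9 other cell types on the TNF-KO array (blue) and the TNF/RelA-DKO array (red); black bars are medians and dashed lines the lowest signal well above background on each array, -4.84 and -4.51. Regulatory T cell genes (medians 2.21 and 2.81), immature thymocyte genes (-0.38 and -1.23) and innate-like genes (-1.78 and -1.92) mostly stand above these lines, while the other 7 lists spread across them. The medians of a list can fall on different genes on each array, so their gap is not the median difference of its genes. That difference was -0.14 for the regulatory T cell genes.

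The largest single differences included genes of several kinds. Of genes measured on both arrays and at a level of at least -2 on one, Chil3, a chitinase-like gene of macrophages, was furthest up, at -4.01 in TNF-KO and -1.40 in TNF/RelA-DKO, followed by Try4 (2.57), Nrn1 (2.22) and Mc3r (2.16). With normexp these differences were 1.13, 1.06, 1.42 and 1.01. Magi1, a junction scaffold, stood at -0.84 and 1.20, the anion exchanger gene Slc4a2 at -0.91 and 1.04, and Pde2a, a cyclic nucleotide phosphodiesterase, at -0.06 and 1.83. Stc2, a stress-induced glycoprotein hormone, differed by 1.88 (0.88 with normexp). In the CD45+EpCAM- pair Chil3, Magi1 and Pde2a differed by 2.89, 2.17 and 1.84. Furthest down was Pdzk1ip1, a small membrane protein, at 1.85 and -0.59, 5.45-fold lower, with -2.45 and -2.08 from its probes. The Wnt ligand gene Wnt10a stood at 0.08 and -2.32, and Phldb1 at -0.24 and -2.10 (-1.20 with normexp). Npas4, an activity-induced factor, differed by -1.91, and S1pr3, an S1P receptor, by -1.78, which were -1.03 and -0.70 with normexp. Pde4a, another phosphodiesterase, stood at 1.47 and 0.04.

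Among bounds the brightest higher genes were Pcolce2, Gm10745 and Trnp1, at least 7.22-fold, 7.14-fold and 6.03-fold higher, with log2 differences of 0.99, 1.05 and 0.92 by normexp. The brightest lower ones were Prox2, Cldn18 and Frem3, at least 7.86-fold, 8.05-fold and 6.90-fold lower, with -1.06, -1.18 and -1.14 by normexp. None of these reached the 75th percentile on the array that measured it. Of 21 cytokines and chemokines 4 were at least 2-fold lower (1.28% of all genes were) and 0 higher, and 0 either way with normexp. The median changed sign with the processing. Ccl1 and Il21 were lower by bounds of -1.84 and -1.36 (-0.58 and -0.21 with normexp), while Il22 and Csf2, also near background but measured on both arrays, both differed by 0.49. Bag3, a co-chaperone, was the 1 heat shock gene at least 2-fold higher, at -2.67 and -1.42 (0.75 with normexp), in a list of 13 with a median of -0.21. Of 19 TGF-beta signalling genes 0 reached 2-fold.

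The 2-fold genes were also looked up in the pairs of the other populations, which share no array with this one. The counts of the CD45-EpCAM+ pair are limited by its weaker TNF/RelA-DKO array. Of the 165 lower genes, 123 were compared in the CD45-EpCAM+ pair, where 34 (27.6%) were at least 2-fold lower, against 9.3% of all genes of that pair, and 9 were at least 2-fold higher. Those 34 made up 2.77% of the 1228 lower genes there. In CD45+EpCAM- cells 127 were compared and 20 (15.7%) were lower, against 2.08% of all, with 5 opposite; they made up 6.60% of the 303 lower genes there. Of the 217 higher genes, 140 were compared in CD45-EpCAM+ cells, where fewer were higher (21, or 15%, against 5.1% of all) than lower (30). In CD45+EpCAM- cells 183 were compared, of which 28 (15.3%, against 1.82% of all) were higher and 11 lower. These 21 and 28 made up 3.12% of 673 and 10.6% of 265 higher genes there. Lower in all 3 pairs were 10 genes, Pdzk1ip1, Wnt10a, Madcam1, Apol9b, Oasl1 and Pde4a among them. Higher in all 3 were 4 genes, Abca1, Chil3, Fcgr4 and Txnip. Pdzk1ip1 differed by -2.10 and Wnt10a by -2.11 in CD45-EpCAM+ cells, and by -1.47 and -1.79 in CD45+EpCAM- cells. The 34 genes include Rela itself. The 2-fold genes here were mostly dim. Their median level on the brighter array was -2.6 (higher) and -2.3 (lower), against 0.1 for all genes compared. The shares of all genes are not matched for level, and the overlap was not tested.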

How the data were processed

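Spot intensity was read from the authors' deposited scanner output, made with Feature Extraction 10.5.1.1 and corrected for background on arrays of design 026655, per the file headers. The version in the submitters' processing notes is Agilent Feature Extraction 9.5. RNA was amplified and labelled with Cy3, per the labels' protocols. The authors' deposited value table is on a log2 scale, as its values show, and equalled the log2 processed signal minus the 75th percentile but for a small fixed offset per array.

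Control and outlier spots were left out and spots of a probe averaged. Probes were named through transcript accessions (GRCm38.p6; the array design names mm9): 27472 of 39419 had 1 symbol, 35 several and 11912 none. Each gene took its brightest probe over 6 arrays. A gene dim on 1 array took, on that array, its own value or the floor, whichever was higher; 119 genes left without a fold were dropped. The comparison was tested on simulated data. Python 3.11.15, pandas 2.3.3, and limma 3.58.1 in R 4.3.3 (normexp only) were used.

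The lists (34, with 713 of 733 genes named on the array) and the members were chosen with earlier results of these data known. Named genes are the 20 largest differences per direction measured on both arrays with probes in 1 direction, the 8 brightest bounds per direction, up to 5 members per list and any at 2-fold, and fixed markers; list members cited beside them for their role, and genes shared by all 3 populations, were chosen after their values were seen. Normexp was run on the median spot signals, since the files used here hold no mean signal. Alternatives were normexp, quantile normalization, median centring, the mean over probes, genes detected on both arrays, no filter, dim values as measured and the deposited value table. Some list members enter the counts and medians but are not reported here by name or drawn singly.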

Additional observations from a re-analysis of the deposited data

Results flagged for a closer look

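Among the genes named by the rule and well above background on all arrays concerned, 6 stood at least 2-fold apart one way in CD4+CD25hi thymocytes and at least 2-fold apart the other way in another population. Each rests on 1 array per genotype and population, and the difference between populations was not tested. The CD45-EpCAM+ values also rest on the weaker TNF/RelA-DKO array of that pair. Dntt differed by -1.004 in CD4+CD25hi thymocytes and by 1.103 in CD45-EpCAM+ cells. Pde2a differed by 1.89 and -1.07, and Ren2 by 1.72 and -1.72, in the same populations. H2-Eb1 differed by 1.11 in CD4+CD25hi thymocytes and by -1.74 in CD45+EpCAM- cells. Ly6d differed by 1.70 and -1.09, and Hbb-bt by -1.39 and 1.82, in these populations. Ren2 and Ly6d stood at 0.88 and 5.33 on the TNF-KO array of CD45-EpCAM+ cells. With normexp background correction the CD4+CD25hi differences of Ren2, H2-Eb1 and Hbb-bt fell to 0.93, 0.46 and -0.51.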

How the results depend on the processing

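The counts of 2-fold genes depended on how dim signals were treated. Against 217 higher and 165 lower genes, normexp background correction gave 33 and 18, detection on both arrays 125 and 97, no filter on dim genes 965 and 590, and dim values as measured 310 and 278. Quantile normalization gave 148 and 157, so that the lower side was the larger there. Its share of higher genes among 2-fold genes was 48.5%, against 56.8%, and with normexp 64.7%. The difference of Rela lay between -1.88 and -1.82, and the medians of the interferon-stimulated, regulatory T cell identity and egress lists kept their sign under all 8 alternatives. Normexp moved 110 of 206 other named genes by more than the SD between probes, the mean over probes 18, quantile normalization 14, and dim values as measured 21. The medians of 5 lists changed sign: BCL2 family and apoptosis, cytokines and chemokines, gamma-delta T cell, innate-like and cytotoxic T cell, and integrins and adhesion. Repeated spots of a probe differed with a median SD of 0.07, which covers printing and scanning only. With 1 pool per genotype the spread between mice is unknown. No paired analysis was possible because each group has 1 array.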

Other observations

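Several genes known as markers of other lineages were bright in both CD4+CD25hi arrays. Siglech, a gene of plasmacytoid dendritic cells, stood at 7.28 in TNF-KO and 7.42 in TNF/RelA-DKO, Csf3r, the granulocyte growth factor receptor, at 6.71 and 6.94, and Itgam, which encodes CD11b, at 4.64 and 5.39. They were about as bright in the CD45+EpCAM- sort, where they stood at 6.89, 6.76 and 4.17 in TNF-KO. In the CD45-EpCAM+ sort they stood at 5.35, 5.35 and 3.49 in TNF-KO, so these probes were bright whatever was sorted. Gata1, an erythroid and mast cell factor, stood at 2.69 on both CD4+CD25hi arrays and at -1.13 in TNF-KO CD45+EpCAM- cells. The granulocyte genes S100a8 and S100a9 and the macrophage genes Adgre1, C1qa and Lyz2 were not well above background on either CD4+CD25hi array, while Elane, Camp and Lcn2 of granulocytes, Csf1r and Fcgr3 of myeloid cells and Bst2, which interferon also induces, were on both.

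The genes next to Rela were looked at after the data had been seen, because alleles that flank a targeted gene can come from another strain. Of the 20 protein-coding neighbours, 10 on each side, 19 were compared, with a median of 0.03. Of these, 1 was at least 2-fold lower (1.28% of all genes) and 0 higher. Efemp2 was that gene, at -0.65 in TNF-KO and -1.76 in TNF/RelA-DKO. Kcnk7 differed by -0.97, Ctsw by -0.82 and Ltbp3 by 0.64. In CD45-EpCAM+ and CD45+EpCAM- cells Efemp2 differed by 0.52 and -0.11. The sources used here do not describe the flanking alleles.

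Of 5752 compared probes without a gene name, 133 were at least 2-fold higher and 62 lower.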
